A study of Mus musculus with 2 samples.

Results

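Collagen chains are modified in the endoplasmic reticulum before they fold and leave the cell, and the 10 genes described here encode the enzymes of that step and a dedicated chaperone. They are the alpha subunits of prolyl 4-hydroxylase (P4ha1, P4ha2, P4ha3), the lysyl hydroxylases (Plod1, Plod2, Plod3), the prolyl 3-hydroxylases (P3h1, P3h2, P3h3) and the collagen chaperone Serpinh1. They were chosen by gene symbol, and all 10 were found once each among the 54713 rows of the deposited gene table. RNA was sequenced from SV40 MES13, a mouse kidney line that the labels call mesangial, in 2 groups of 1 library each. The first group had been infected with a lentivirus for AI662270, a long noncoding RNA, and its genotype is labelled as overexpression of that RNA. The control group had received the control virus, Lv_NC, and is labelled wild type. Both were listed as untreated otherwise, selected with puromycin at 0.5 mg/ml, kept at 0.25 mg/ml, and grown in medium with 10% serum. In the count table the control is headed Lv_Con, which was taken as Lv_NC because it is the one control. The treatment text names Sox9 as the transcript that was checked and gives the cell line's name as the insert of the virus. Whether each stable line was a clone or a pool is not given in the sources used here. With 1 library per group, differences could not be checked against replicates, and each value compares 2 libraries, not 2 conditions.

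Hydroxyl groups on proline stabilise the collagen triple helix, and those on lysine serve as sites for sugar attachment and for the cross-links that lysyl oxidases later form. The hydroxylases use molecular oxygen, iron, 2-oxoglutarate and ascorbate. Serpinh1, also called HSP47, binds the folded helix and escorts it out of the endoplasmic reticulum. Mesangial cells produce the matrix between the capillaries of the glomerulus, and that matrix expands in chronic kidney disease. P4ha1, P4ha2 and Plod2 are known targets of the hypoxia-inducible factors, which bind the DNA core ACGTG or GCGTG.

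Sequences before a RefSeq start of each of the 3 alpha subunit genes are shown because P4ha1 and P4ha2 are known hypoxia targets and P4ha3 had the largest ratio of the 10 genes. Each is the 250 bases before the RefSeq transcript start in GRCm38.p6, read 5′ to 3′ on the plus strand, which is the strand of all 3 genes. Capitals mark ACGTG or GCGTG on either strand, so that CACGT and CACGC are matches on the opposite strand. The windows lie at chr10:59323046-59323295, chr11:54100674-54100923 and chr7:100285270-100285519. The P4ha2 window begins 579 bases inside the deposited gene span, whose first base belongs to an earlier start than that of the RefSeq transcript.
P4ha1: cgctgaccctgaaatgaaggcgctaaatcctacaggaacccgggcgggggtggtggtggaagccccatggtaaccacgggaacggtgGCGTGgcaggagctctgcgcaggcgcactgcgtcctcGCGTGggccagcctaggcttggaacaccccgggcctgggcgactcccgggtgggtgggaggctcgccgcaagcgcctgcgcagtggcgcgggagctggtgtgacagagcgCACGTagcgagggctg
P4ha2: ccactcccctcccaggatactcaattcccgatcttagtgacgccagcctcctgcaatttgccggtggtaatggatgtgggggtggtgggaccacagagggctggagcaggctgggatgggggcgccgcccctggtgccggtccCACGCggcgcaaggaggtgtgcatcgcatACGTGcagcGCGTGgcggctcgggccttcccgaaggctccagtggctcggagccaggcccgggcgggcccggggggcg
P4ha3: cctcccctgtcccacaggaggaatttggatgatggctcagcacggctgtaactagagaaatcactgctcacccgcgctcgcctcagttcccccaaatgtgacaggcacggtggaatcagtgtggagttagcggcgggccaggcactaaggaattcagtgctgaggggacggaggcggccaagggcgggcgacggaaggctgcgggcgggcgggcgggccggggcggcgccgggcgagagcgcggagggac

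In the P4ha1 window the 3 matches begin 163, 126 and 16 bases before the start, and the match at 16 bases is on the opposite strand. In the P4ha2 window they begin 107, 78 and 69 bases before the start, and the match at 107 bases is on the opposite strand. The P4ha3 window held 0 matches. RefSeq windows were found for 8 of the 10 genes, and Plod2 and P3h2 were not among them. Of those 8 genes, 6 had at least 1 match, and P4ha3 and P3h3 had none. Each gene was counted once, and P3h1 had 2 windows, each with a match, while the shares that follow are per window. The same core was present in 38.6% of all 32851 windows of that length, and in 64.2% of the 12417 windows that, like 7 of the 9 windows of these genes, held at least 10 CG dinucleotides. The heat shock motif TTCNNGAA was present in 1 of the 8 genes, P4ha2, and in 7.17% of all windows. These matches describe letters in a window and are no evidence of binding.

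The AI662270 library held 15062482 counts and the control library 15727023 counts. AI662270 itself had 241 counts in its library, or 15.5 CPM (counts scaled to library size, per 1000000 reads after TMM scaling, 95% exact interval 13.6 to 17.5). The control library had 0 counts, and a floor was set there at 3 counts or 0.197 CPM. Counted against that floor, AI662270 was at least 78.4-fold higher, and the exact interval of the ratio itself starts lower, at 63.3. Of 8 mesangial marker genes, 5 were measured (a mean of at least 1 CPM), with a summed level of 42.5 CPM in the AI662270 library and 22.2 CPM in the control library. Of the 5 measured, 4 had an exact interval of the ratio above 1, and 1, Gata3, had one below 1. Acta2 was called higher, with 171 counts in the AI662270 library and 12 in the control library. Gata3 was called lower, with 25 counts in the AI662270 library and 76 in the control library. The other measured markers, Pdgfrb, Tbx18 and Des, had ratios of 1.78, 1.84 and 2.18 and were not called. Itga8 and Thy1 were at 0 in both libraries. Among markers of other cell types, podocyte genes summed to 83.2 CPM in the AI662270 library and 148.8 CPM in the control library, with Nphs1 at 0 in both. Podxl was called lower, at 42.4 CPM in the AI662270 library and 123 CPM in the control library, while Synpo had 39.4 CPM in the AI662270 library and 25.9 CPM in the control library. Wt1 had 22 counts in the AI662270 library and 0 in the control library. Proximal tubule genes, mostly Lrp2, summed to 52.2 CPM in the AI662270 library and 47.8 CPM in the control library, with Slc34a1 at 0 in both. The osteoblast list came to 39.1 CPM in the AI662270 library and 38.1 CPM in the control library, all from Alpl, with Bglap, Sp7 and Ibsp at 0 in both. Leukocyte genes summed to 4.94 CPM in the AI662270 library and 6.84 CPM in the control library, with Adgre1 and Cd3e at 0 in both. Endothelial genes summed to 1.41 CPM in the AI662270 library and 0.592 CPM in the control library, with Tek at 0 in both. The part that these marker levels have in the results was not tested, and in bulk RNA a change in the number of cells of a type cannot be told apart from a change in RNA per cell.

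Of the 10 genes, 9 had a higher scaled level in the AI662270 library than in the control library and 1, P3h2, had a lower one. Among all measured genes, 48.7% had a log2 ratio above 0. A gene was called higher or lower where its log2 ratio, with 0.5 CPM added to both levels, was 1 or more away from 0 and the exact 95% interval of its ratio left out 1. By that rule 2 genes were higher, Plod2 and P4ha3, and 0 were lower. No p-value was computed, since nothing measures the spread within a group. Across all 13268 measured genes, 5.59% were called higher and 5.72% lower. All 10 genes were measured, but P4ha3 reached the minimum only through the AI662270 library. The interval of the ratio lay above 1 for 9 of the 10 genes and below 1 for P3h2. Among all measured genes, 31.9% had an interval above 1 and 35.8% below. Intervals narrow with depth, and 6 of the 10 genes averaged 50 CPM or more, against 5152 of the 13268 measured genes. No share at matched depth was computed. These intervals cover counting error only, and reads carried no molecular identifiers. The median log2 ratio of the 10 genes was 0.75, against -0.02 over all measured genes.

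**Figure D1:**
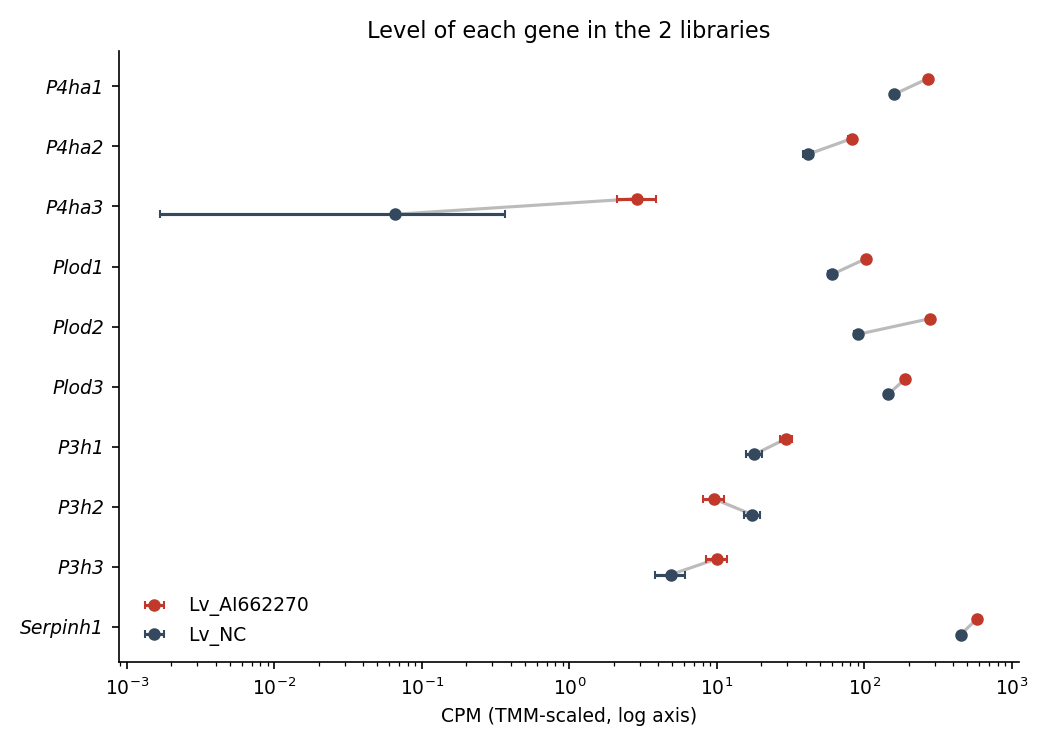
Level of each gene in CPM on a log axis, with the AI662270 library in red above the control library in dark blue. Bars are 95% exact Poisson intervals of the count; P4ha3 in the control library rests on 1 count, and P3h2 is the gene whose AI662270 point lies to the left of its control point.

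Levels between genes were compared as CPM per kilobase of the gene length in the deposited table. Serpinh1 was the most abundant at 237 CPM per kilobase in the AI662270 library, where it ranked 130 among all measured genes, and 184 in the control library, where it ranked 188. P4ha1 followed at 65.6 CPM per kilobase in the AI662270 library and 38.8 in the control library. Plod2 came next in the AI662270 library with 51.3 CPM per kilobase, and had 16.7 in the control library. Plod3 had 41.9 CPM per kilobase in the AI662270 library and 32.1 in the control library, so that Plod2 stood above Plod3 in the AI662270 library and below it in the control library. Plod1, P4ha2, P3h1, P3h2, P3h3 and P4ha3 then followed in the same order in both libraries. The counting intervals of neighbours in this order overlapped for P3h2 and P3h3 in the AI662270 library and for P3h1 and P3h2 in the control library, and for no other pair.

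Prolyl 4-hydroxylase is a tetramer of 2 alpha subunits, which carry the active site, and 2 beta subunits, and the main alpha subunit genes both had more RNA in the AI662270 library. P4ha1, the most abundant alpha subunit gene here, lies on chromosome 10 from 59323296 to 59373304 in build mm10. It had 4203 counts (270 CPM) in the AI662270 library and 2429 counts (160 CPM) in the control library, a ratio of 1.69 (1.61 to 1.78). P4ha2, on chromosome 11 from 54100095 to 54131665, had 1278 counts (82.02 CPM) in the AI662270 library and 632 counts (41.6 CPM) in the control library. Its ratio of 1.97 (1.79 to 2.17) lay just under the 2-fold threshold, and it passed when libraries were scaled by total counts, by upper quartiles or by DESeq2 size factors, and when medians of gene length bins were subtracted. P4ha3, an alpha subunit gene on chromosome 7 from 100285520 to 100319699, had 45 counts (2.89 CPM) in the AI662270 library and 1 count (0.0658 CPM) in the control library. Its ratio was 43.9, with an interval from 7.49 to 1772 that the single control count makes wide. Its log2 ratio depends on the CPM added, and was 4.17 with 0.1 CPM, 2.58 with 0.5 CPM and 1.24 with 2 CPM.

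P4ha3 nevertheless remained a minor part of the family. Of the reads on the 3 alpha subunit genes, P4ha3 took 0.814% (exact binomial interval 0.595 to 1.09) in the AI662270 library and 0.0327% (0.000827 to 0.182) in the control library. P4ha1 took 76.1% (74.9 to 77.2) in the AI662270 library and 79.3% (77.8 to 80.7) in the control library. P4ha2 took 23.1% (22.02 to 24.3) in the AI662270 library and 20.6% (19.2 to 22.1) in the control library. The ratio of P4ha2 was 1.17 times that of P4ha1 (1.05 to 1.30), a comparison within each library that does not depend on how the libraries are scaled. P4hb, protein disulfide isomerase, which is the beta subunit, had 13847 counts in the AI662270 library and 6735 in the control library, a ratio of 2.01 (1.95 to 2.07). Summed over the 3 genes, alpha subunit RNA came to 79.6 CPM per kilobase in the AI662270 library and 45.5 in the control library, and P4hb to 311 in the AI662270 library and 155 in the control library. Alpha over beta was therefore 0.256 in the AI662270 library and 0.294 in the control library, and the ratio of alpha to beta counts in the AI662270 library was 0.878 times that in the control library (0.832 to 0.926).

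**Figure D2:**
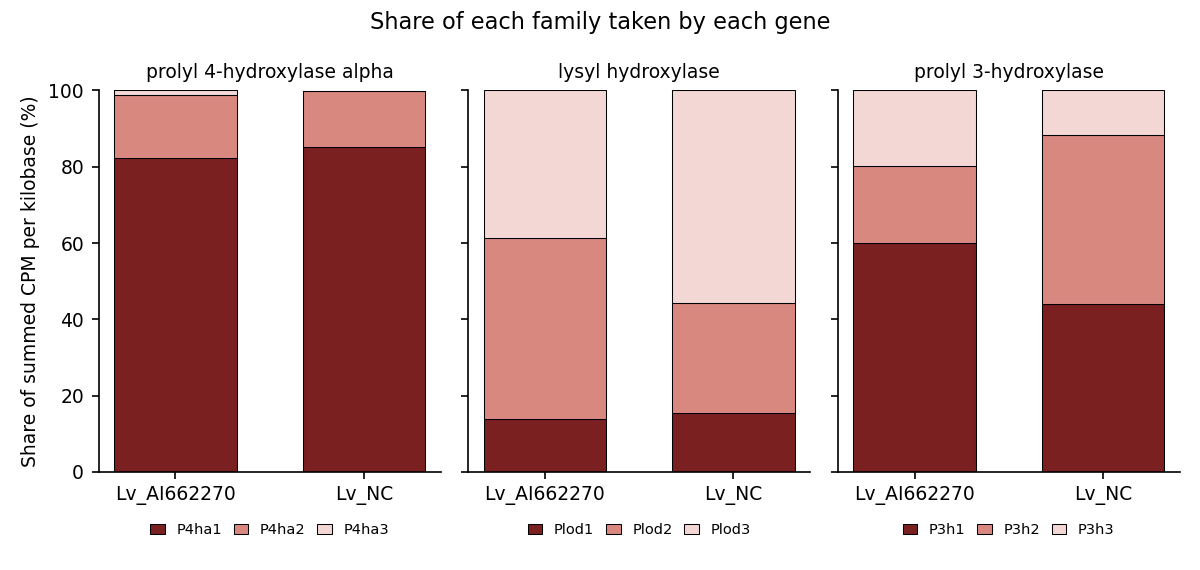
Share of the summed CPM per kilobase of each hydroxylase family taken by each of its genes, with the AI662270 library on the left and the control library on the right of each panel. The Plod2 segment covers 47.4% of the lysyl hydroxylases in the AI662270 library and 28.9% in the control library, and the P3h2 segment covers 20.2% of the prolyl 3-hydroxylases in the AI662270 library and 44.1% in the control library.

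Among the lysyl hydroxylases the gene for the telopeptide enzyme stood out in size. Plod2 hydroxylates lysines in the collagen telopeptides, the short ends outside the helix, and lies on chromosome 9 from 92542223 to 92608428. It had 4307 counts (276 CPM) in the AI662270 library and 1367 counts (89.9 CPM) in the control library, a ratio of 3.07 (2.89 to 3.27). A higher log2 ratio was found in 1.76% of measured genes. Among the 5152 measured genes that averaged 50 CPM or more, to which Plod2 belongs, 1.3% were called higher and 5.2% lower. Plod2 was the 1 gene called higher among the 6 of the 10 that reached this level. Plod1, whose enzyme acts on lysines within the helix, had 1593 counts (102 CPM) in the AI662270 library and 920 counts (60.5 CPM) in the control library, a ratio of 1.69 (1.56 to 1.83). Plod3, whose enzyme also adds sugars to hydroxylysine, had 2949 counts (189 CPM) in the AI662270 library and 2205 counts (145 CPM) in the control library, a ratio of 1.30 (1.23 to 1.38).

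The make-up of the lysyl hydroxylase RNA differed between the libraries. Plod2 took 48.7% of the reads of the family (47.6 to 49.7) in the AI662270 library and 30.4% (29.1 to 31.8) in the control library. Plod3 took 33.3% (32.3 to 34.3) in the AI662270 library and 49.1% (47.6 to 50.6) in the control library, and Plod1 took 18.0% (17.2 to 18.8) in the AI662270 library and 20.5% (19.3 to 21.7) in the control library. Plod2 was thus the largest member in the AI662270 library and Plod3 in the control library. The ratio of Plod2 was 2.36 times that of Plod3 (2.17 to 2.56) and 1.82 times that of Plod1 (1.64 to 2.02). Plod2 has several splice forms, and counts per gene do not separate them. GENCODE M21 lists 5 transcripts for it. Plod2 overlaps Gm38391 on the other strand by 647 bases, which had 29 counts in the AI662270 library and 17 in the control library. Plod3 overlaps Znhit1 by 1003 bases, and Znhit1 had 964 counts in the AI662270 library and 555 in the control library. Whether the counting used strand is not given in the sources used here. Reads in these overlaps are therefore uncertain.

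The prolyl 3-hydroxylases were the least abundant of the 3 families, and they were the family in which one member went against the others. P3h1, which modifies a single proline of type I collagen in a complex with Crtap and cyclophilin B (Ppib), had 457 counts (29.3 CPM) in the AI662270 library and 272 counts (17.9 CPM) in the control library, a ratio of 1.64 (1.41 to 1.91). P3h3, which in mice works in a complex with P3h4 and Plod1 that affects lysine hydroxylation, had 155 counts (9.95 CPM) in the AI662270 library and 74 counts (4.87 CPM) in the control library. Its ratio was 2.04 (1.54 to 2.73), but its log2 ratio with 0.5 CPM added was 0.96 and under the threshold. It passed with scaling by total counts or upper quartiles and with 0.1 CPM added. P3h2, whose enzyme acts mainly on type IV collagen of basement membranes, had 149 counts (9.56 CPM) in the AI662270 library and 263 counts (17.3 CPM) in the control library. Its ratio was 0.553 (0.449 to 0.678), which did not reach the threshold, and 8.55% of measured genes had a lower log2 ratio. P3h2 overlaps Gm4524 by 1055 bases, a gene with 13 counts in the AI662270 library and 19 in the control library.

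P3h1 and P3h2 had taken nearly equal shares of the family in the control library and did not in the AI662270 library. P3h1 took 60.1% (56.5 to 63.6) of the family's reads in the AI662270 library and 44.7% (40.7 to 48.7) in the control library. P3h2 took 19.6% (16.8 to 22.6) in the AI662270 library and 43.2% (39.2 to 47.2) in the control library. The ratio of P3h1 was 2.97 times that of P3h2 (2.29 to 3.84), and that of P3h3 was 3.70 times that of P3h2 (2.59 to 5.29). The ratios of P3h3 and P3h1 were not told apart at this depth, with a quotient of 1.25 (0.901 to 1.73). It was the 1 pair of the 9 within families whose interval held 1.

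Serpinh1, the chaperone, had 9022 counts (579 CPM) in the AI662270 library and 6821 counts (449 CPM) in the control library. Its ratio of 1.29 (1.25 to 1.33) was the smallest of the 9 above 1, and 22.4% of measured genes had a higher log2 ratio. It lies on chromosome 7 from 99345376 to 99353239. Of the 54713 rows in the gene table, 23075 had a count in at least 1 library, and 13268 were measured, among them all 10 genes. In the authors' deposited table of 897 genes listed as changed, 2 of the 10 genes appear. They are Plod2 with a log2 fold change of 1.62 and P4ha3 with 5.29, both in the authors' own values. That list comes from the same 2 libraries, and the P4ha3 value rests on 1 count in the control library.

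**Figure D3:**
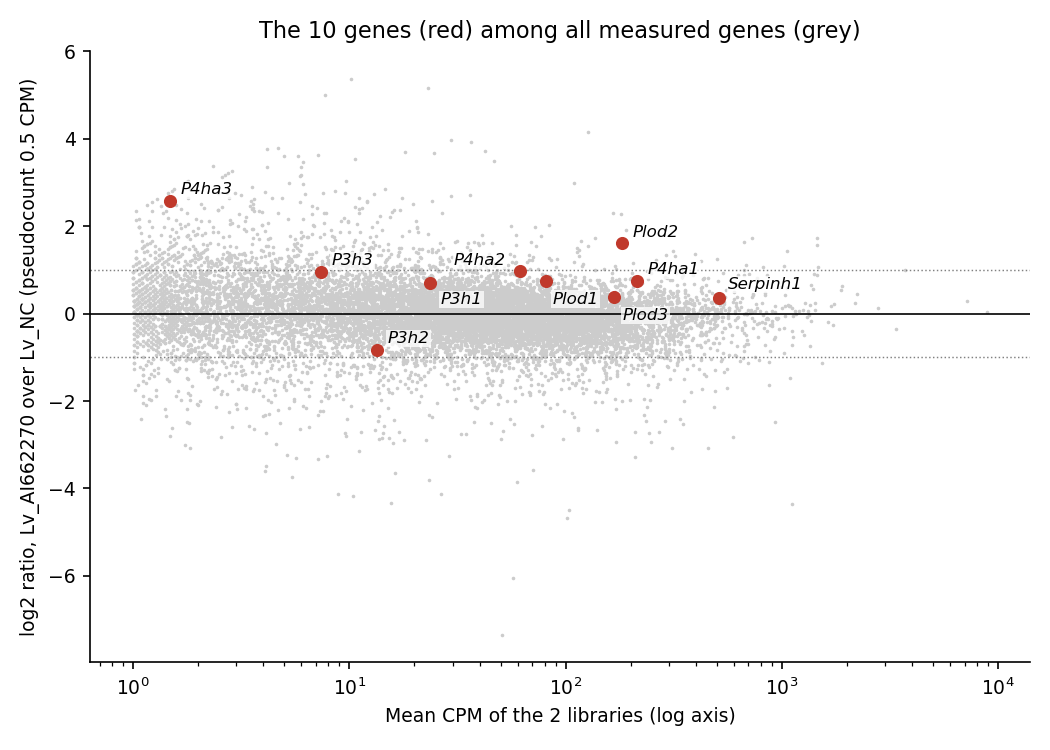
Log2 ratio (AI662270 over control, with 0.5 CPM added) against the mean CPM of both on a log axis; grey points are the 13268 measured genes, red points the 10 genes, and dotted lines a log2 ratio of 1 and -1. Plod2 and P4ha3 lie above the upper line, P4ha2 and P3h3 just under it, and P3h2 is the one red point below 0.

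All 10 genes are annotated as protein coding and lie on 8 chromosomes. P4ha3 and Serpinh1 share chromosome 7, and chromosome 4 carries Plod1 from 147909753 to 147936767 and P3h1 from 119232915 to 119248975. Plod3 lies on chromosome 5 from 136987019 to 136996648, P3h3 on chromosome 6 from 124841089 to 124857752, and P3h2 on chromosome 16 from 25959288 to 26105784. The median log2 ratio of measured genes on these chromosomes ran from -0.14 on chromosome 10, which carries P4ha1, to 0.11 on chromosome 5, which carries Plod3. By a rule that takes the nearest log2 ratio among the 6 gene lists below, the genes most like Plod2 (1.61) were Ldha, a lactate dehydrogenase gene, at 1.58 and the collagen gene Col5a3 at 1.55. The value of Col5a3 depends on the CPM added, since it had 48 counts in the AI662270 library and 11 in the control library. Without added CPM its ratio was 4.26 (2.18 to 9.09), against 3.07 for Plod2. No nearest genes are given for P4ha3, whose log2 ratio also depends on the CPM added. With 2 libraries a pattern is 1 ratio, so likeness means only a similar ratio.

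The partners that fold and sort collagen beside these enzymes held 14 genes, of which 13 were measured, 3 were called higher and 0 lower. Their median log2 ratio was 0.21. For this list and those that follow, the shares over all measured genes were 5.59% called higher and 5.72% lower. Besides P4hb, whose log2 ratio of 1.004 sat at the threshold, the partners called higher were Fkbp14 and Creb3l1. Fkbp14, a prolyl isomerase gene, had 180 counts in the AI662270 library and 74 in the control library, a ratio of 2.37 (1.80 to 3.15). Creb3l1, a membrane-bound transcription factor that controls collagen secretion in bone, had 183 counts in the AI662270 library and 80 in the control library, a ratio of 2.23 (1.71 to 2.94). With 2 CPM added, 1 partner was called higher in place of 3.

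In the P3h1 complex, Crtap had 951 counts in the AI662270 library and 504 in the control library, a ratio of 1.84 (1.65 to 2.06). Ppib had 1087 counts in the AI662270 library and 822 in the control library, a ratio of 1.29 (1.18 to 1.41). The proportion of P3h1 to Crtap was 0.890 times that in the control library (0.737 to 1.08), an interval that holds 1, and that of P3h1 to Ppib was 1.27 times (1.06 to 1.52). P3h4, the non-enzymatic partner of P3h3, had 815 counts in the AI662270 library and 834 in the control library, a ratio of 0.954 (0.865 to 1.05). P3h3 per P3h4 was thus 2.14 times that in the control library (1.59 to 2.92). Fkbp10, a chaperone that assists Plod2, was scarce, with 18 counts in the AI662270 library and 33 in the control library and a ratio of 0.532 (0.282 to 0.973). Plod2 per Fkbp10 was 5.78 times that in the control library (3.15 to 10.9).

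The remaining partners had ratios from 0.839 for Tmem38b, an ion channel gene of the endoplasmic reticulum, to 1.24 for Kdelr3, a receptor that returns proteins to that compartment. Between them lay Colgalt1, which adds galactose to hydroxylysine, at 1.16, the isomerase genes Fkbp9 and Fkbp7 at 1.14 and 1.10, and Mia3, which loads collagen into transport carriers, at 1.10. Colgalt2 had 12 counts in the AI662270 library and 0 in the control library and was below the minimum level.

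**Figure D4:**
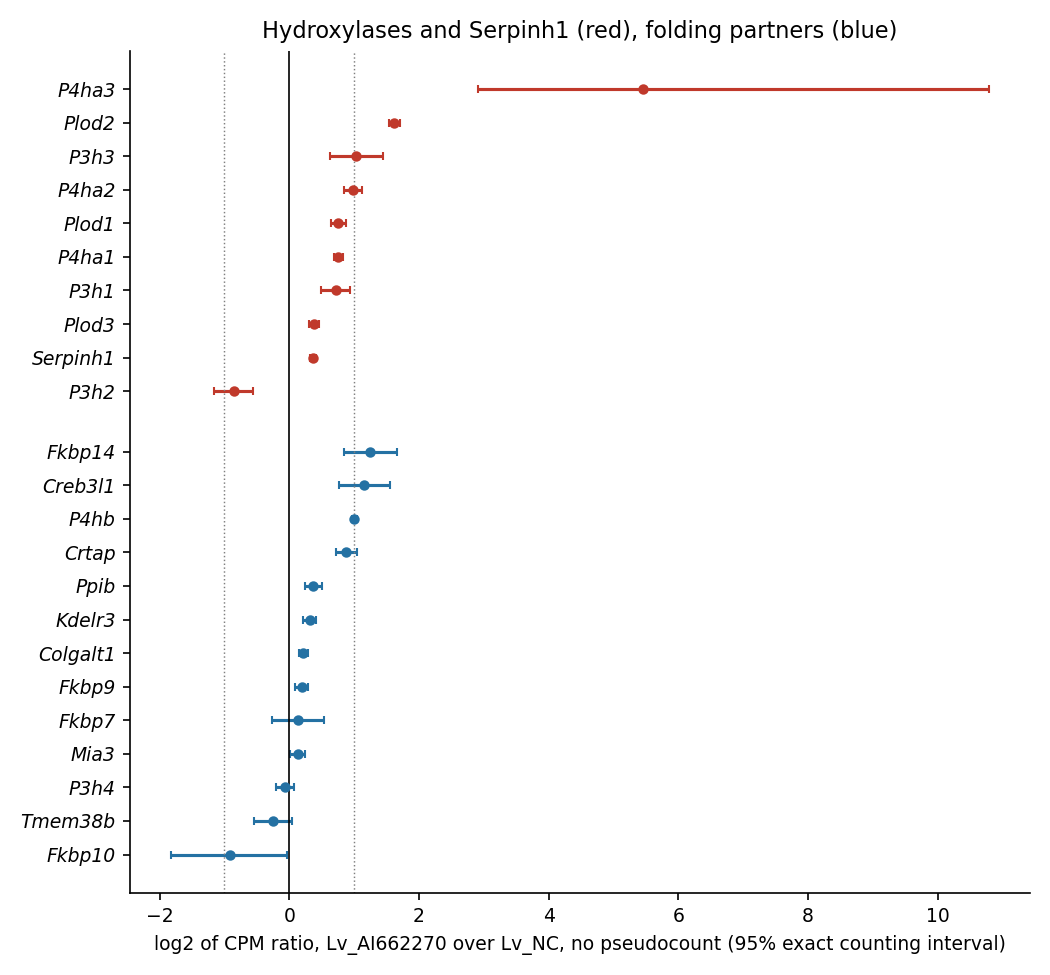
Log2 of the CPM ratio of the AI662270 library over the control library, without added CPM, for the 10 genes in red and the 13 measured folding partners in blue, with 95% exact counting intervals and dotted lines at 1 and -1. The P4ha3 interval is the widest, and P3h2 and Fkbp10 are the genes whose whole interval lies below 0.

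The substrates of these enzymes were mixed. Of 44 collagen chain genes, 33 had a count, 19 were measured, 4 were called higher and 2 lower, and the median log2 ratio was 0.29. Col12a1, a fibril-associated collagen, had 528 counts in the AI662270 library and 33 in the control library, a ratio of 15.6 (10.98 to 22.9). The beaded filament genes Col6a1 and Col6a2 had 979 and 359 counts in the AI662270 library, against 139 and 46 in the control library. Col5a3 was also called higher, with 48 counts in the AI662270 library and 11 in the control library. The genes called lower were both type IV collagens of the glomerular basement membrane. Col4a3 had 7 counts in the AI662270 library and 80 in the control library, and Col4a4, named after its values were seen, had 59 in the AI662270 library and 295 in the control library. Other type IV chains, also chosen after their values were seen, had ratios of 1.33 for Col4a1, 1.05 for Col4a2, 1.22 for Col4a5 and 1.57 for Col4a6. The next genes were named after their values were seen as well. Col18a1, the chain with the highest mean CPM, had 4482 counts in the AI662270 library and 6255 in the control library. Its ratio was 0.699 (0.673 to 0.727). Col1a1 had 124 counts in the AI662270 library and 67 in the control library, and Col1a2 and Col3a1 had 0 in both.

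Genes for cutting and cross-linking procollagen held 13 members, of which 10 were measured, 3 were called higher and 0 lower, with a median log2 ratio of 0.50. The higher genes were all lysyl oxidases. They were Lox, with a log2 ratio of 4.16, Loxl1 with 1.99, and Loxl2 with 1.09 from 5549 counts in the AI662270 library and 2535 in the control library. The other lysyl oxidase genes, named after their values were seen, were not called. Loxl4 had 2163 counts in the AI662270 library and 3106 in the control library, a ratio of 0.680 (0.643 to 0.718), and Loxl3 had 65 in the AI662270 library and 38 in the control library, a ratio of 1.67 (1.10 to 2.56).

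Hypoxia targets held 24 genes, all measured, of which 8 (33.3%) were called higher and 1 lower, with a median log2 ratio of 0.74. Among all measured genes, 5.59% were called higher and 5.72% lower. The hypoxia list includes P4ha1, P4ha2 and Plod2, and Plod2 is one of the 8. It also shares Lox with the cross-linking genes, Kdm3a with the oxygenases below and Slc2a1 with the supply genes. Lox and Kdm3a were called higher, so the counts of these lists overlap. Without P4ha1, P4ha2 and Plod2, 7 of 21 were higher and 1 lower, with a median log2 ratio of 0.66. The largest ratios on the log2 scale belonged to Lox at 4.16 and Ankrd37 at 3.59. The mitophagy receptor gene Bnip3 at 2.997 and the pyruvate dehydrogenase kinase gene Pdk1 at 2.31 came next. Ankrd37 had 173 counts in the AI662270 library and 7 in the control library, so its log2 ratio depends on the CPM added. Without added CPM its ratio was 24.1 (11.5 to 60.9). The gene called lower was Car12, a carbonic anhydrase gene, with 60 counts in the AI662270 library and 147 in the control library, a ratio of 0.398 (0.290 to 0.541). Of the 24, the interval lay above 1 for 17 genes and below 1 for 5. Among the 5, chosen after their values were seen, were the glycolytic genes Hk2 and Pfkfb3, each with a ratio of 0.572.

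Other enzymes that use oxygen and 2-oxoglutarate, but not collagen, held 20 genes, of which 19 were measured, 6 were called higher and 0 lower. Their median log2 ratio was 0.27. Egln1 and Egln3, prolyl hydroxylases that mark hypoxia-inducible factors for destruction, had 4680 and 1563 counts in the AI662270 library, against 939 and 621 in the control library. The histone demethylase gene Kdm4b had 1105 counts in the AI662270 library and 425 in the control library, and the DNA demethylase gene Tet1 had 73 in the AI662270 library and 23 in the control library. P4htm, a transmembrane prolyl 4-hydroxylase gene, had 9 counts in the AI662270 library and 13 in the control library and was below the minimum level.

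Genes that supply ascorbate, iron or 2-oxoglutarate held 12 members, of which 11 were measured, 1 was called higher and 0 lower, with a median log2 ratio of 0.004. The higher gene was Tfrc, the transferrin receptor gene for iron uptake, with 7182 counts in the AI662270 library and 2575 in the control library, a ratio of 2.72 (2.60 to 2.85). Slc23a2, an ascorbate transporter gene named after its values were seen, had 1175 counts in the AI662270 library and 1716 in the control library, a ratio of 0.668 (0.620 to 0.720).

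**Figure D5:**
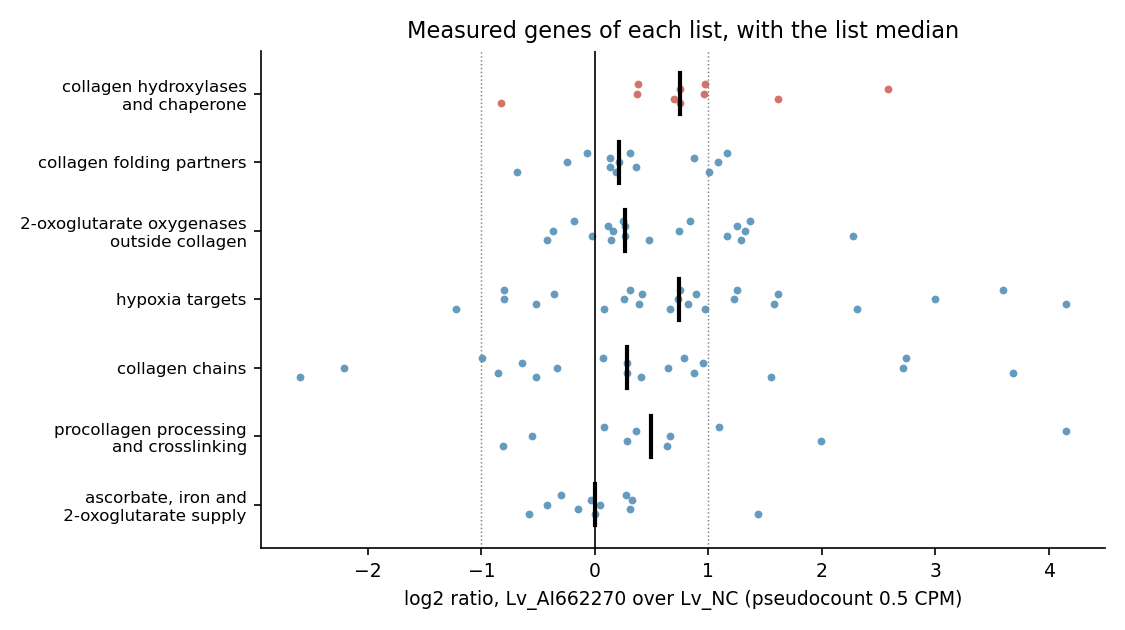
Log2 ratio (AI662270 over control, with 0.5 CPM added) for each measured gene of 7 lists; red points are the 10 genes described here, blue points the other lists, black bars the list medians and dotted lines 1 and -1. Medians run from 0.004 for the supply genes to 0.74 for the hypoxia targets and 0.75 for the 10 genes. P4ha1, P4ha2 and Plod2 also appear among the hypoxia targets, and Lox, Kdm3a and Slc2a1 each appear in more than 1 blue list.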

How the data were processed

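Libraries were processed by the submitters with CASAVA 1.4 and TopHat2 on mm10, per the submitters' processing notes. The read counter, annotation and use of strand: not given in the sources used here. The deposited count columns hold whole reads per gene, not normalized by the authors. The deposited FPKM columns equal counts over gene length and a divisor of 15391166 shared by both libraries, and served as an alternative. The deposited signal columns, which the authors rescaled to 1 library size, were not used. The authors' log2 fold changes and p-values come from 1 library against 1, and are quoted only as a listing and 2 fold changes.

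Counts were scaled by TMM in edgeR 4.0.16 (R 4.3.3), with factors of 1.03 for the AI662270 library and 0.967 for the control library. Ratios, AI662270 over control, and Clopper-Pearson intervals were computed in Python 3.11.15 with scipy 1.17.1. Intervals of ratios between genes are exact conditional odds ratio intervals. One marker gene is not reported here. Genes and lists were chosen with earlier results of these data known. The text names all 10 genes, all folding partners, and in other lists up to 4 genes past the rule of size with the largest log2 ratios, or the 2 most abundant where none passed. Where rows shared a symbol, the one with more reads was kept. Coordinates of all 10 genes equal those in GENCODE M21, and promoter sequences are from RefSeq, GRCm38.p6. Alternatives were 3 other scalings, 2 pseudocounts, 2 filters, 2 fold thresholds, FPKM, and subtraction of medians of 20 gene length bins. The DESeq2 size factors were 1 for both libraries, so that setting compares unscaled counts, as FPKM does.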

Additional observations from a re-analysis of the deposited data

How the results depend on the processing

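Of the 11 alternatives, 4 (filters and fold thresholds) leave log2 ratios as they are. Under the other 7, none of the 10 genes changed direction. A pseudocount cannot reverse a direction. The scalings moved log2 ratios by less than the 0.37 of Serpinh1, the value nearest 0, so they could not reverse one here. Log2 ratios ran from 1.60 to 1.71 for Plod2, from -0.85 to -0.72 for P3h2 and from 1.24 to 4.17 for P4ha3, the last set by the pseudocount. Genes called higher among the 10 numbered 4 with scaling by total counts and 4 with upper quartiles (P4ha2 and P3h3 were added), 1 with a minimum of 5 CPM, which removes P4ha3, and 7 at 1.5-fold, where P3h2 was the 1 called lower. Over all measured genes, 742 were higher and 759 lower, against 400 higher and 573 lower with 2 CPM added, 391 and 572 at a minimum of 5 CPM, 486 and 556 on FPKM, 870 and 615 with scaling by total counts, 820 and 655 with upper quartiles, 1705 and 1893 at 1.5-fold, and 247 and 262 at 3-fold. At 1.5-fold, hypoxia targets held 14 higher and 3 lower, collagen chains 8 and 4, processing and crosslinking genes 5 and 1, and folding partners 1 lower. At 3-fold, 5 hypoxia targets were higher and 0 lower, and 1 oxygenase, 0 folding partners and 0 supply genes were higher. With 2 CPM added, 1 folding partner was higher and 0 hypoxia targets lower. Hypoxia targets held 0 lower genes on FPKM as well. Collagen chains held 1 lower gene at a minimum of 5 CPM and 1 on FPKM. Fewer tested genes or another threshold produce these counts by construction. By construction, too, a larger pseudocount pulls every log2 ratio toward 0, and another scaling shifts all log2 ratios in the same direction. For FPKM, which changes both, the parts were not separated. The median log2 ratio of all measured genes was -0.02 in the main setting. It was 0.08 with scaling by total counts and 0.05 with upper quartiles. Depth limits P4ha3, P3h3 and Fkbp10. No paired analysis was possible because each group held 1 library.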

Other observations

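The genes beside Plod2 and P4ha3, taken in equal number on each side, were looked at after their values were seen. Among all measured genes, 5.59% were called higher. Of the 6 nearest measured genes of Plod2 on chromosome 9, 1 was called higher, the sulfotransferase gene Chst2, with 76 counts in the AI662270 library and 11 in the control library. Of the 6 nearest measured genes of P4ha3 on chromosome 7, 1 was called higher, Pgm2l1, with 463 counts in the AI662270 library and 166 in the control library. The log2 ratios of the other 5 near P4ha3 included -0.34 for Ucp2 and 0.79 for Ppme1. Those of the other 5 near Plod2 included -0.92 for Slc9a9 and 0.84 for 1190002N15Rik.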
